A study of Homo sapiens with 36 samples.

Results

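The DNA repair genes of a targeted RNA-Seq panel were described across 36 human lymphoma cell lines. The genes were chosen by symbol alone: ATM, ATR, EXO1, PRKDC, every symbol beginning with FANC, XRCC, ERCC, BRCA, PARP, MSH, MLH, PMS, LIG or POL with its usual suffix, and every RAD with a number. This gave 68 of the 2549 genes of the panel. Of the 68, 6 match by name and were given no repair route here. They are the RNA polymerase II subunits POLR2D, POLR2H and POLR2J, the cohesin subunit RAD21, the pseudogene PMS2P3, and XRCC6BP1. The remaining 62 fall into damage kinases and clamps, homologous recombination, the Fanconi anaemia pathway, end joining, mismatch repair with its meiotic relatives, nucleotide excision, base excision with the PARP enzymes, and replicative polymerases with their ligase, plus RAD18, which acts in translesion synthesis.

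The study counted RNA from lysed cells of each line by targeted sequencing on an Illumina NextSeq. Each line is an immortal B-cell culture and gave 1 library, with no treatment and no repeat, so no value has an error within a line. The labels name the line and no lymphoma type. Types were assigned here from general knowledge of these established lines: 14 of germinal centre B-cell-like (GCB) diffuse large B-cell lymphoma, 5 of activated B-cell-like (ABC) diffuse large B-cell lymphoma, 9 of mantle cell lymphoma, and 5 of marginal zone lymphoma (KARPAS1718, SSK41, VL51) or hairy cell leukaemia (HAIR_M, HC_1). FARAGE, RCK8 and MEC1 were given no type. The origin of JVM2, HAIR_M and HC_1 is debated, so values without them are given where a call depended on them. A type is a set of lines from different people kept in culture for a long time, and spread within a type is spread between lines.

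Cells repair different DNA lesions by different routes. Damage kinases such as ATM and ATR sense breaks and stalled replication forks and signal to the cell cycle, mismatch repair removes copying errors, excision repair removes altered bases, and broken ends are rejoined directly by end joining or copied from the sister chromatid by homologous recombination. B cells make and mutate their antibody genes through programmed DNA breaks and base changes, which draw on the same enzymes, and loss of repair genes such as ATM is well known in B-cell lymphomas.

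Library totals ran from 6422917 to 13451527 counts with a median of 10476681. A count of 3, taken as the most that a count of 0 allows, corresponded to at most 0.474 CPM in any library. Levels are counts scaled to library size (CPM) after scaling by TMM factors, which correct for library composition and ran from 0.602 to 1.87. The highest of 10 control probes drew a median of 10 counts. MEC1 stood apart: its highest control probe drew 424 counts, no gene had fewer than 174, and its TMM factor was the highest. All 6 B-cell markers in the panel had a median of at least 10 CPM in every type, with median sums from 13360 CPM in ABC to 31070 CPM in the marginal zone and hairy cell lines. The median summed level of 6 T-cell and NK-cell markers lay between 98.6 CPM (GCB) and 300.4 CPM (ABC), of 10 myeloid markers between 325.7 and 422.1 CPM, and of 14 stromal, endothelial and epithelial markers between 1045 and 1562 CPM. Of these, 0 to 2, 4 to 6 and 2 to 5 had a median below 10 CPM, depending on the type. The part of these genes in the results was not tested. The types differed in their own markers: the summed level of 8 germinal centre markers had a median of 4256 CPM in GCB and 627.9 CPM in ABC lines, and that of 9 activated B-cell markers 2625 and 8071 CPM. CCND1, the cyclin whose translocation defines most mantle cell lymphoma, was above 1000 CPM in 4 of 9 mantle lines (GRANTA519, JVM2, MAVER1, MINO) and below 10 CPM in 2 (JEKO1, SP53), so these libraries do not show CCND1 at a high level in every line of that name. Target lengths and probe efficiencies were not used here, so a gene's level is compared between lines and never with another gene's.

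All 68 genes passed the filter on low counts (10 CPM in 4 lines or more) and were tested. Their levels spread less across lines than those of the panel: the median SD of log2 CPM was 0.79, against 1.20 over the 2406 genes tested. RAD18, a ubiquitin ligase that recruits translesion polymerases, had the lowest SD at 0.497 and ran from 112.7 CPM in SUDHL2 to 550.7 CPM in KARPAS1718. MSH6, a subunit of the mismatch sensor, had the highest SD at 1.56, set in large part by 1 line described further on. The 10 genes with the largest SD were MSH6, EXO1, MSH4, MSH5, PARP3, FANCE, XRCC3, LIG1, FANCA and ATM. In a bulk lysate, fewer cells that express a gene and less RNA per cell cannot be told apart.

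**Figure D1:**
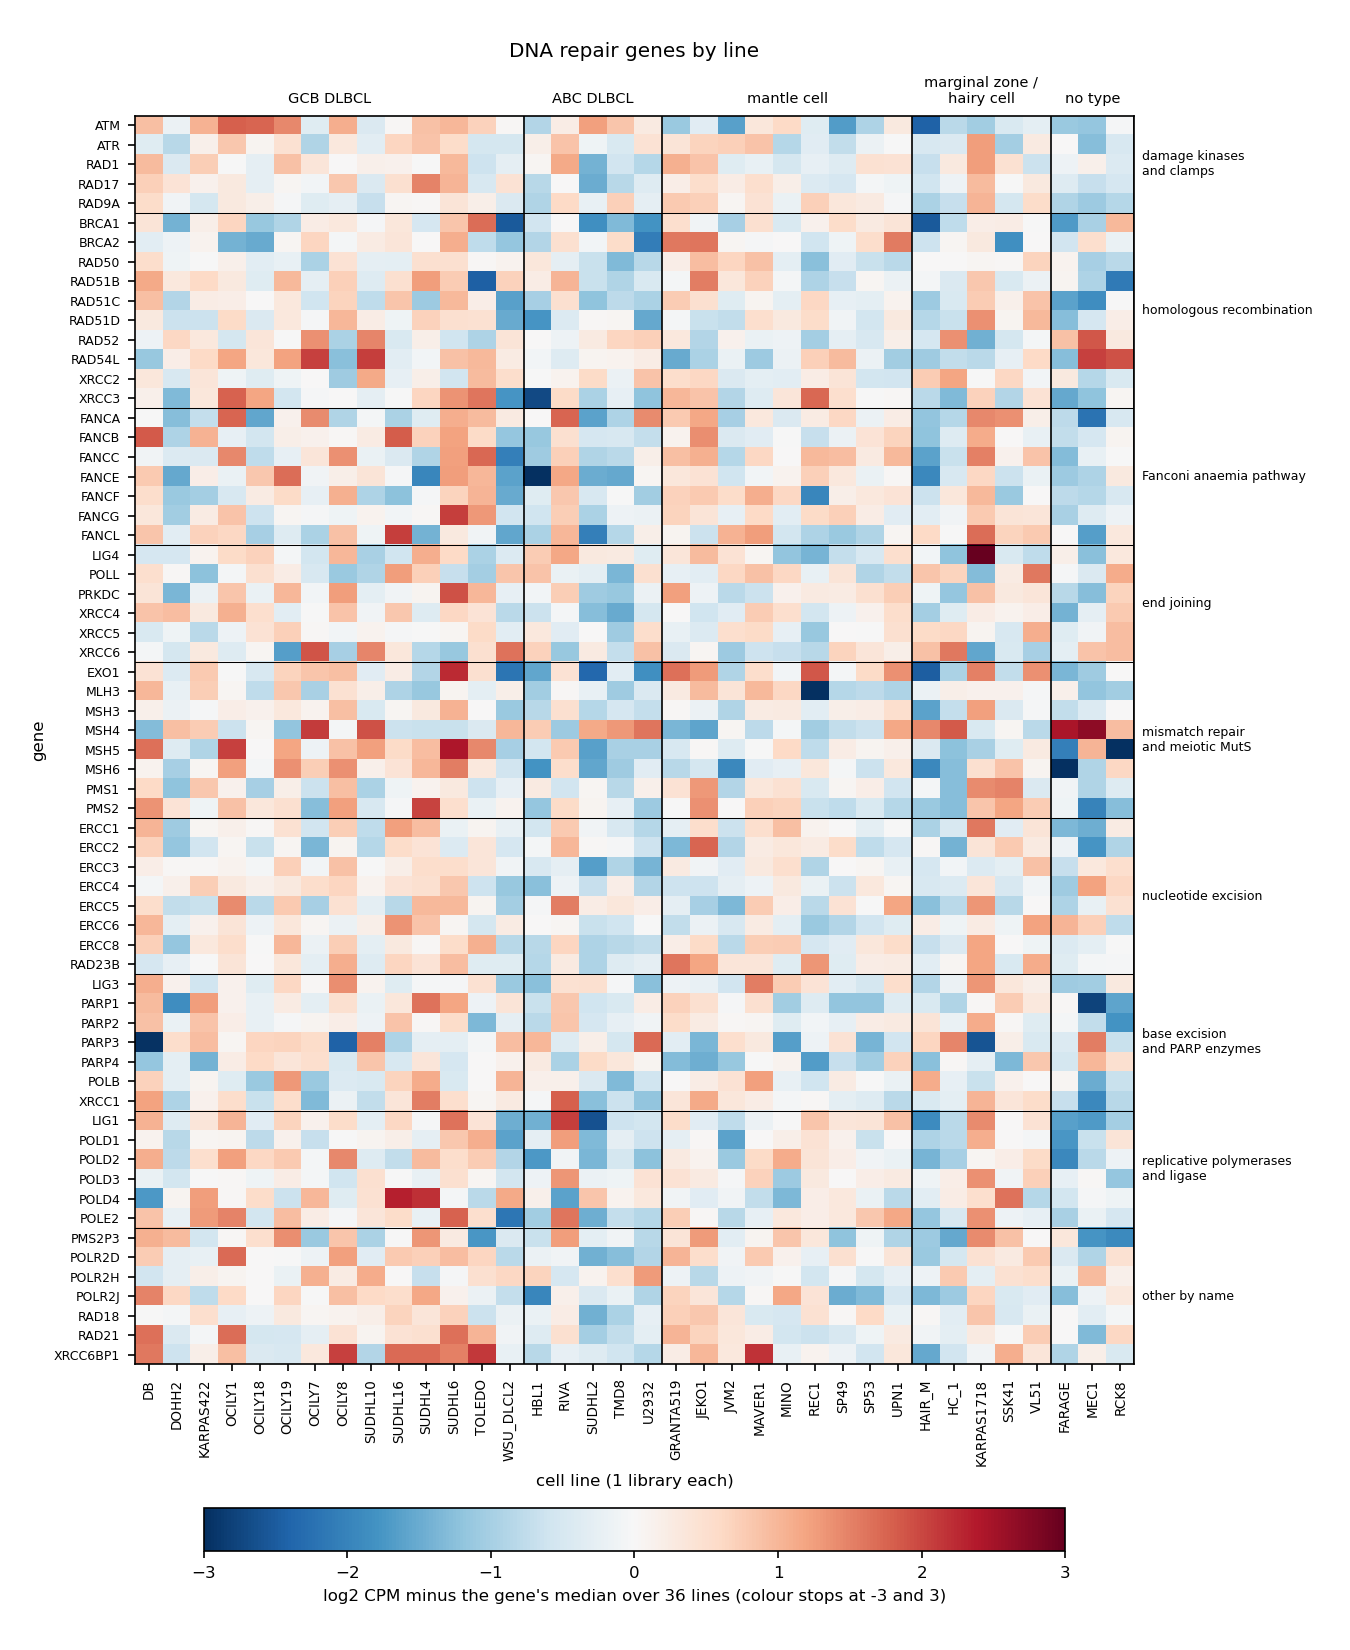
Each cell of the map is the log2 CPM of 1 repair gene reported here (rows, grouped by role) in 1 line (columns, grouped by type) minus that gene's median over 36 lines, with colour stopping at -3 and 3. Most cells lie near 0. Columns that are blue over many genes include MEC1, SUDHL2 and FARAGE, with median deviations of -0.78, -0.63 and -0.63, and red columns include KARPAS1718 (0.68) and SUDHL6 (0.67).

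After TMM scaling, the lines differed in the level of repair genes as a group. The median of the 68 deviations from the gene medians was highest in KARPAS1718 (0.68) and SUDHL6 (0.67), where 12 and 8 of the genes had their highest level. It was lowest in MEC1 (-0.78), where 13 genes had their lowest level, followed by SUDHL2 (-0.63), FARAGE (-0.63), HAIR_M (-0.58) and HBL1 (-0.57). The median deviation of all genes tested was 0.00 in KARPAS1718 and -0.14 in SUDHL6, and 0.46 in MEC1, the library with the raised controls. The TMM factor, by which levels are divided, was 0.692 in KARPAS1718 and 0.755 in SUDHL6. It was 1.871 in MEC1, 1.263 in SUDHL2, 1.165 in FARAGE, 1.13 in HAIR_M and 1.128 in HBL1. A difference between these lines in repair genes cannot be told apart here from one in library composition. The SD of the repair genes without MEC1 had a median of 0.77.

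Across the 4 types, few repair genes differed. The test over types called 2 of 68, ATM and MSH5 (edgeR quasi-likelihood test, Benjamini-Hochberg adjusted p under 0.05 over all genes), where 6.28% of all genes tested were called and 11 of the 68 had an unadjusted p under 0.05. Against the GCB lines, ABC lines differed in 1 gene, ERCC3 (1.75% of all genes), mantle lines in 1, ATM (4.36%), and marginal zone and hairy cell lines in 1, ATM (3.28%). Unadjusted p was under 0.05 for 15, 7 and 5 of the 68. All these calls were of lower levels than in GCB lines, and the 3 comparisons share the GCB lines. With 2 genes called over types (2.94%) and 1 in each comparison (1.47%), the shares rest on too few genes to rank against the panel. Calls of lower levels alone made up 0.333% of all genes in ABC, 2% in mantle and 0.125% in marginal zone and hairy cell lines.

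The proliferation marker MKI67 gave a different picture. Of the 68 genes, 35 had a slope on the log2 CPM of MKI67 across the 36 lines at an adjusted p under 0.05 (edgeR quasi-likelihood test), where 31.4% of all genes did. For 32 of these the level rose with MKI67, against 16.1% of all genes, and for 3 it fell (MSH4, PARP3 and POLR2H), against 15.3%. The median slope was 0.28 log2 units per log2 unit of MKI67 for the repair genes and 0.02 for all genes tested, and 56 of the 68 slopes were positive. With the log2 TMM factor of each library in the model, 11 genes kept the call, among them EXO1, LIG1, POLE2, RAD1, RAD18, RAD23B, RAD51C, FANCG and BRCA2. These 11 also kept it in the other 10 alternative fits and without each of the 36 lines in turn. With type in the model, in the 33 lines that have one, 25 genes were called.

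**Figure D2:**
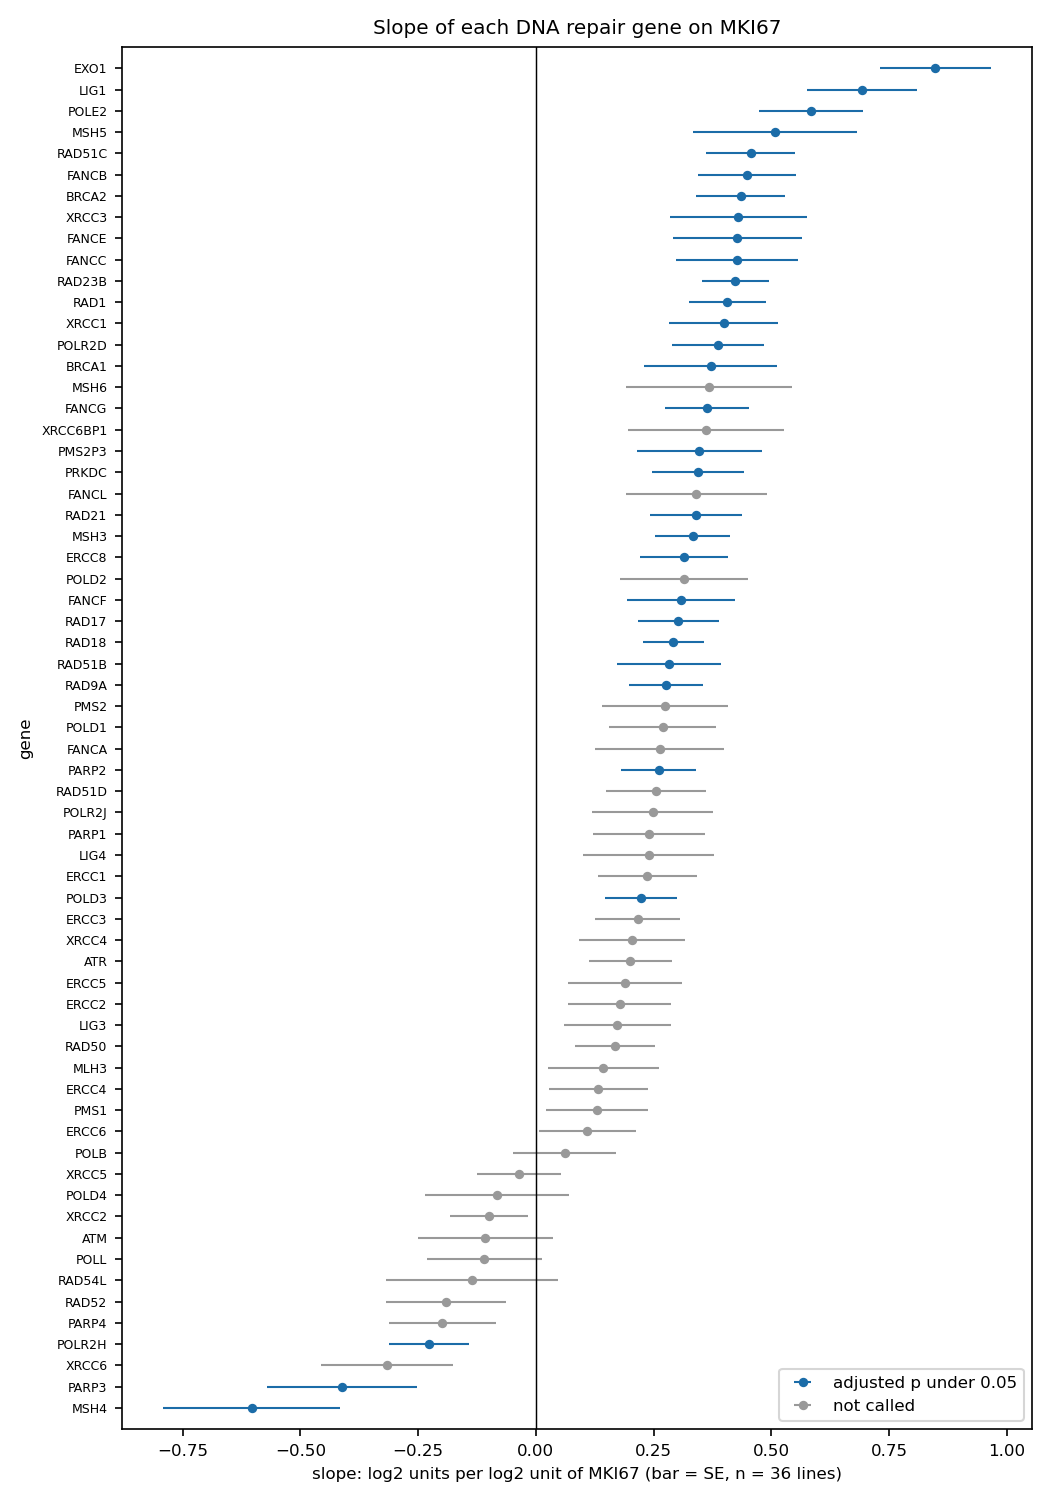
Each point is the slope of 1 repair gene reported here on MKI67 in log2 units per log2 unit over 36 lines, with its SE as a bar and blue marking an adjusted p under 0.05. Slopes run from 0.85 for EXO1 to -0.60 for MSH4, and most points lie right of 0.

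Promoter sequences are shown for 3 of the genes with the steepest rise with MKI67 (LIG1, POLE2, EXO1) and for ATM, whose slope did not pass. Each is the RefSeq window of GRCh38.p14 from 250 bases before to 50 after an annotated start, 300 bases in all, read along the gene's strand, and the first window where a gene has several. They lie at chr19:48170295-48170594 (LIG1, minus strand), chr14:49688165-49688464 (POLE2, minus strand), chr1:241847954-241848253 (EXO1, plus strand) and chr11:108222817-108223116 (ATM, plus strand). Capitals mark matches, on either strand, to 3 sets of letters: TTTGGCGC, TTTCCCGC, TTTGGCGG or TTTCCGCC, known from sites of the E2F factors that drive S-phase genes; CCAAT, bound by NF-Y; and TTTGAA or TTTAAA, known from the cell cycle homology region.
LIG1: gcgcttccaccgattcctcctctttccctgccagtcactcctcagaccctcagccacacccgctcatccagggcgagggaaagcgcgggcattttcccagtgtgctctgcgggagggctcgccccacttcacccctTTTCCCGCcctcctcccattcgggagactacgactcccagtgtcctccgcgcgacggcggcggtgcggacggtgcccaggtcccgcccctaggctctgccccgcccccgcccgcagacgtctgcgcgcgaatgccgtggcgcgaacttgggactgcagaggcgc
POLE2: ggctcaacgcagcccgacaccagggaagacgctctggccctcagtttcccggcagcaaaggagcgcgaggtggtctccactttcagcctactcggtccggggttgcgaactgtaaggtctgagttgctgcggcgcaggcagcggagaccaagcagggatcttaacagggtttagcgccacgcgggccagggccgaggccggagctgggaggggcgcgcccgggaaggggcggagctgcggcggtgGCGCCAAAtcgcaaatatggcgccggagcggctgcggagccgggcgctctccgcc
EXO1: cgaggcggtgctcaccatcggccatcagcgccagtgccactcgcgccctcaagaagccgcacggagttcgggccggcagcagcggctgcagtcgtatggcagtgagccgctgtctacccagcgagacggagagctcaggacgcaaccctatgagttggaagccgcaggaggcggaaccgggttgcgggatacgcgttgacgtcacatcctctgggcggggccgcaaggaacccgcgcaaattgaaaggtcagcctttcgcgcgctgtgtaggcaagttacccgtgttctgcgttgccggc
ATM: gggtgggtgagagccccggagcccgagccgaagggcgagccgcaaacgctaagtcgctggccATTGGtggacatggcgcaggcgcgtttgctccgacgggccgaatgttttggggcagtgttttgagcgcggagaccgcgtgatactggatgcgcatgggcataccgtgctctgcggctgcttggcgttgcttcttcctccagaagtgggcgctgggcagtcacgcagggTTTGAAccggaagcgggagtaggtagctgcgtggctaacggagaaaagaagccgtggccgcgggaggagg

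The E2F letters stood once in the window of LIG1, at -114 from the start, and once in that of POLE2, at -5. EXO1, with the steepest slope, had none of the 3 sets in the window shown, and its second window, at chr1:241848481-241848780, held the third set once. ATM had CCAAT at -188 and TTTGAA at -20. Over the 55 repair genes with a window, 8 of 83 windows (9.64%) held the E2F letters, against 5.11% of the 2992 windows of panel genes and 4.2% of all 35116 windows of this length. The share was 12.1% (4 of 33 windows) in genes that rose with MKI67 and 8.7% (4 of 46) in those not called. CCAAT stood in 36.1% of the repair gene windows, 34.9% of the panel's and 34.6% of all, and the third set in 14.5%, 21.2% and 24.0%. No set overlaps another in letters at the marked places. A match is a description of the letters and not of binding.

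Among the damage kinases and clamps, ATM differed between the types. ATM, the kinase that answers double-strand breaks (chr11:108222484-108369102, plus strand, GRCh38), ran from 263.6 to 1229 CPM in the 14 GCB lines, with a median of 664.8. In the mantle lines it was 112.1 CPM in SP49, 116 in JVM2, 165.4 in GRANTA519, 189.3 in SP53, 278.2 in REC1, 280.3 in JEKO1, 438.9 in UPN1, 454.9 in MAVER1 and 539.8 in MINO. The marginal zone and hairy cell lines had 65.9 CPM (HAIR_M), 173 (KARPAS1718), 204.3 (HC_1), 260.9 (SSK41) and 292.5 (VL51). The ABC lines ranged from 194.9 CPM in HBL1 over 416.3 in RIVA, 429.1 in U2932 and 638.7 in TMD8 to 842.5 in SUDHL2. The ranges of all types overlapped, and 4 of 9 mantle lines and 4 of 5 marginal zone and hairy cell lines lay below every GCB line.

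ATM differed between types at an adjusted p of 0.0181 (edgeR quasi-likelihood test), and this call held without each of the 33 lines in turn. The mean log2 CPM was 9.17 ± 0.75 (SD, n = 14) in GCB, 8.82 ± 0.80 (n = 5) in ABC, 7.95 ± 0.85 (n = 9) in mantle and 7.48 ± 0.85 (n = 5) in marginal zone and hairy cell lines. ATM was lower than in GCB lines by a log2 fold change of -1.19 (SE 0.34, adjusted p = 0.0419 by edgeR) in mantle lines and -1.71 (SE 0.45, adjusted p = 0.0241) in marginal zone and hairy cell lines. In ABC lines the fold change was -0.37 (SE 0.41, adjusted p = 0.731). Without JVM2, HAIR_M and HC_1 together, none of the 3 ATM calls held, and the adjusted p over types reached 0.0868. The mantle call was lost without any 1 of 13 lines (the mantle lines GRANTA519, JEKO1, JVM2, REC1, SP49 and SP53 and the GCB lines DB, KARPAS422, OCILY1, OCILY18, OCILY19, OCILY8 and SUDHL4), and with MKI67 in the model, with adjusted p up to 0.0842 over all settings. The marginal zone and hairy cell call was lost without HAIR_M, HC_1 or KARPAS1718 and with limma-voom, with adjusted p up to 0.218. Both calls were also lost with the authors' log2 values and with FARAGE added to GCB and RCK8 to ABC. HAIR_M had the lowest ATM of all lines, and its nearest panel gene, DDX10, which lies 443 kb away, was at 178.6 CPM there against a median of 239.1.

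The slope of ATM on MKI67 did not pass (slope -0.11, SE 0.14, adjusted p = 0.592 by edgeR). ATR, the kinase of stalled forks, had levels from 192.3 CPM in MEC1 to 1115 CPM in KARPAS1718 and passed neither the test over types (adjusted p = 0.996) nor that on MKI67 (slope 0.20, SE 0.09, adjusted p = 0.0731). The checkpoint clamp subunits RAD1 and RAD9A and the clamp loader subunit RAD17 rose with MKI67, by slopes of 0.41 (SE 0.08), 0.28 (SE 0.08) and 0.30 (SE 0.09). The RAD17 call was lost with the log2 TMM factor or type in the model, and that of RAD9A with the log2 TMM factor. Of 10 other damage signalling genes in the panel, 5 rose with MKI67, where 16.1% of all genes did. MDC1, the mediator that binds marked chromatin at breaks, had a slope of 0.48 (SE 0.08), and WEE1, the kinase that holds cells before mitosis, 0.65 (SE 0.13). The checkpoint kinases CHEK1 (0.12, SE 0.12) and CHEK2 (0.07, SE 0.10) did not pass.

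**Figure D3:**
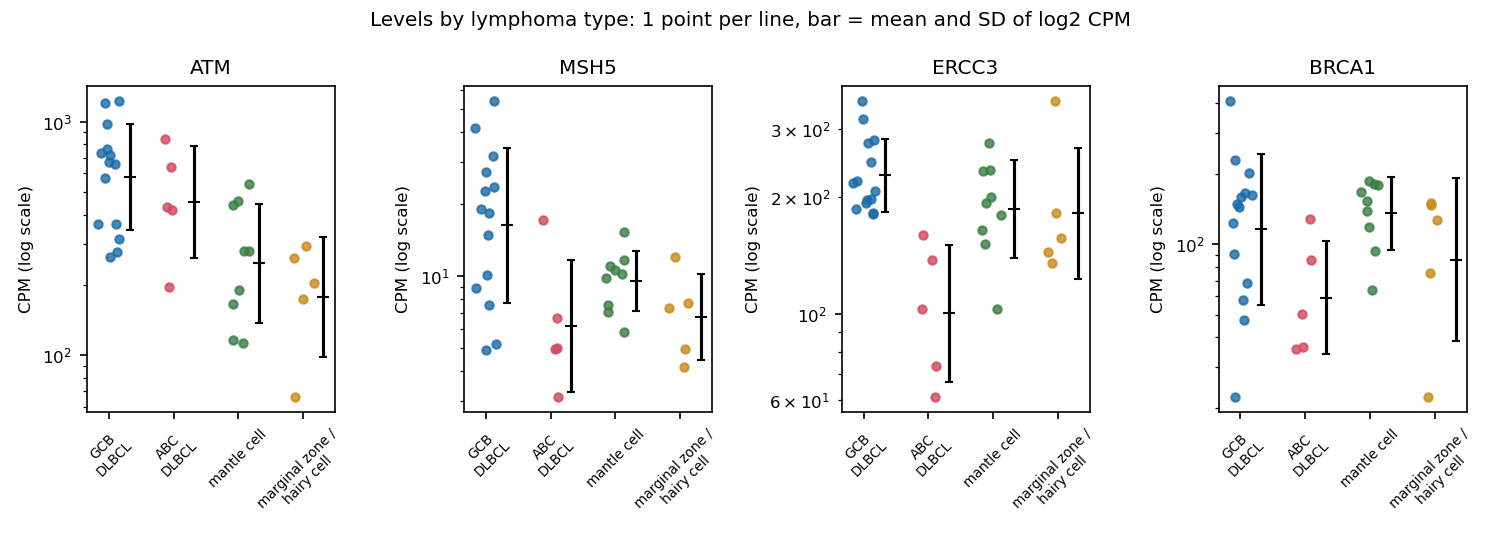
CPM on a log scale for ATM, MSH5, ERCC3 and BRCA1, 1 point per line, with the mean and SD of log2 CPM as a bar beside each type. ATM sits lower in mantle and in marginal zone and hairy cell lines than in GCB lines, ERCC3 is lower in all 5 ABC lines than in all 14 GCB lines, and BRCA1, which was not called, overlaps in all 4.

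Mismatch repair and its meiotic relatives held the 4 genes with the largest SD. FARAGE nearly lacked MSH6, part of the complex that finds base mismatches (chr2:47695530-47810101, GRCh38): 25 counts, or 2.69 CPM (exact Poisson 95% interval 1.74 to 3.97), against a median of 567 CPM. The next lowest line, HAIR_M, had 147.3 CPM, and the highest, SUDHL6, had 1648 CPM. The highest control probe in the FARAGE library drew 6 counts. EPCAM, whose gene lies 350 kb away, was at 7.32 CPM in FARAGE against a median of 9.47, a level too low to show a fall of like size. FANCL, 10464 kb away on the same chromosome, was at 316.9 CPM against 314.8 and is too distant to describe the region. A loss of the region was not tested.

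MLH3, a MutL subunit, was similarly low in 1 mantle line. REC1 had 33.5 CPM (461 counts), against a median of 475.6 CPM and 208.5 CPM in the next line, MEC1. Of its 4 nearest panel genes, PGF (9.15 CPM against a median of 6.46), BATF (271.3 against 131.5) and ABCD4 (110 against 101.9) were above their medians in REC1, and FOS, 265 kb away, was below (21.3 against 42.6). PMS1 and PMS2, also MutL subunits, had no line 2 or more log2 units below the median. PMS2 was 443.1 CPM in MEC1 and 7171 CPM in SUDHL4 against a median of 1772, and it moved with the pseudogene PMS2P3 (Spearman rho 0.84 over 36 lines), a near-identical copy whose reads may not be separable from those of PMS2.

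The meiotic MutS genes MSH4 and MSH5, which form a pair in meiotic recombination, went in opposite directions. MSH5 was called over types (adjusted p = 0.0453 by edgeR), with a median of 18.7 CPM in GCB lines (4.91 to 54.1), 10.2 in mantle lines (5.81 to 15.2), 7.30 in marginal zone and hairy cell lines (4.15 to 12.0) and 4.98 in ABC lines (3.10 to 17.2). The types overlapped, and the call was lost without any 1 of 24 of the 33 lines, with adjusted p up to 0.232 over all settings. MSH5 rose with MKI67 by a slope of 0.51 (SE 0.18, adjusted p = 0.0274 by edgeR), a call lost without SUDHL2 or SUDHL6 and with the log2 TMM factor or type in the model. In RCK8 its 11 counts lay below that library's highest control probe, at 64 counts. MSH4 fell by 0.60 log2 units per log2 unit of MKI67 (SE 0.19, adjusted p = 0.0159 by edgeR). It ran from 8.44 CPM in JEKO1 to 164.6 CPM in MEC1, and its call was lost in the same 2 fits.

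EXO1, the exonuclease that removes the mismatched strand (chr1:241847967-241895148, GRCh38), had the steepest slope on MKI67 of the 68. It ran from 17.0 CPM in HAIR_M, 18.3 in SUDHL2 and 20.6 in WSU_DLCL2 to 341.7 in REC1 and 448.7 in SUDHL6, with a median of 94.3. These 3 lowest lines had MKI67 at 268.8, 92.9 and 209.5 CPM, and SUDHL6 had 2617. The slope was 0.85 (SE 0.12, adjusted p = 2.19e-06 by edgeR) and kept its call in all 11 alternative fits. MSH3, which helps find small loops of unpaired bases, rose too (0.33, SE 0.08), while MSH6 (0.37, SE 0.18, adjusted p = 0.0995 by edgeR) did not pass. The MSH3 call was lost with the log2 TMM factor in the model. Of the 7 other mismatch repair partners in the panel, 6 rose with MKI67, where 16.1% of all genes did. Among them were PCNA, the sliding clamp (0.47, SE 0.10), and the clamp loader subunit RFC3 (0.60, SE 0.14). Of these, PCNA, RFC1, RFC3, RFC4 and RPA1 are counted again among the nucleotide excision genes that rose, and PCNA among base excision and replication genes. The partner counts are therefore not separate from each other.

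**Figure D4:**
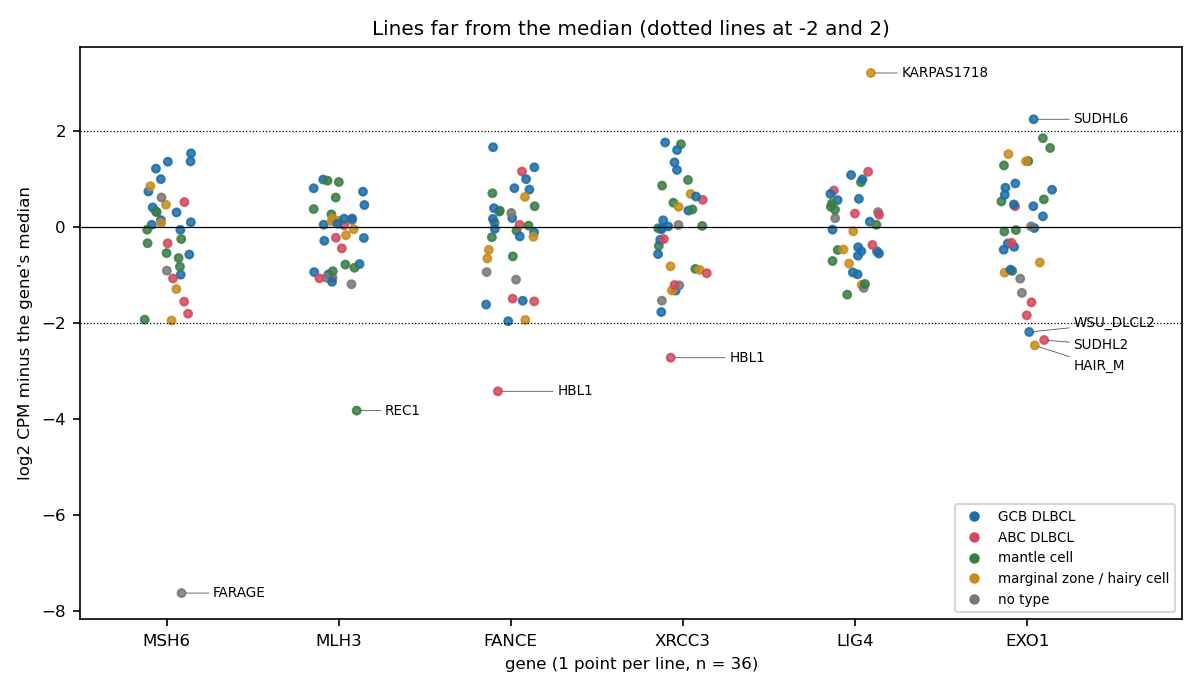
Log2 CPM minus the gene's median for 6 repair genes, 1 point per line coloured by type, with dotted lines at -2 and 2. MSH6 in FARAGE (-7.62), MLH3 in REC1 (-3.82), FANCE and XRCC3 in HBL1 (-3.42 and -2.72) and LIG4 in KARPAS1718 (3.21) stand away from the other lines, while EXO1 spreads over both sides.

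Homologous recombination was divided between genes that rose with MKI67 and genes that did not. RAD51C, which acts in strand exchange, ran from 56.7 CPM in MEC1 to 405.4 CPM in SUDHL6 with a median of 205.9, and its slope was 0.46 (SE 0.09, adjusted p = 0.000551 by edgeR). BRCA2, which loads the recombinase onto single strands (0.44, SE 0.10), and XRCC3 (0.43, SE 0.15) rose as well. The XRCC3 call was lost without SUDHL6, without the 2 lines farthest in MKI67, and with the log2 TMM factor or type in the model. BRCA1, which acts upstream of BRCA2, passed narrowly (0.37, SE 0.14, adjusted p = 0.043 by edgeR) and lost the call without any 1 of 12 lines. The BRCA1 call was also lost with the rank of MKI67. RAD51B (0.28, SE 0.11, adjusted p = 0.0478 by edgeR) lost its call without any 1 of 22 lines and with no filter. Both calls were lost without the 2 lines farthest in MKI67, and with the log2 TMM factor or type in the model. RAD50 (0.17), RAD51D (0.26), XRCC2 (-0.10), RAD52 (-0.19) and RAD54L (-0.14) did not pass. Across pairs of the 11 genes the median Spearman rho was 0.09 over 36 lines, against 0.27 for all pairs of the 68 and -0.002 for pairs of all genes tested.

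Single lines were low in recombination genes of different kinds. BRCA1 had a median of 127.9 CPM and was 22.2 CPM in WSU_DLCL2 and 22.3 CPM in HAIR_M, with its nearest panel gene, RND2, 19 kb away, at 38.0 and 31.8 CPM against a median of 27.0, and RUNDC1, 64 kb away, at 355.6 and 245.1 CPM against 371. The ABC lines had BRCA1 at 35.7 CPM (SUDHL2), 36.6 (U2932), 50.6 (TMD8), 85.8 (HBL1) and 128.7 (RIVA), within the GCB range of 22.2 to 410.6, and the difference did not pass (log2 fold change -1.11, SE 0.49, adjusted p = 0.279 by edgeR). XRCC3 was 32.0 CPM in HBL1 against a median of 211.3, and its nearest panel genes there were mixed. BAG5 (107.3 CPM against a median of 252.1) and AKT1 (43.5 against 152.3) were below their medians. CKB (62.9 against 19.0) and AHNAK2 (24.4 against 10.3) were above. RAD51B was 93.2 CPM in TOLEDO and 116.9 CPM in RCK8 against a median of 511.8. RAD51B is a long gene, and ZFP36L1, which begins past its end, is its nearest panel gene. ZFP36L1 was below its median of 873.4 CPM in both lines, at 339.7 CPM in TOLEDO and 316.9 CPM in RCK8. PLEK2, on the other side and 433 kb from start to start, was at 2.79 and 28.9 CPM against a median of 8.06. FUT8 was below its median of 396.7 CPM in TOLEDO (113.6 CPM) and near it in RCK8 (373.1 CPM). BRCA2 was lowest in U2932 at 32.5 CPM against a median of 137.5.

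The Fanconi anaemia genes, which unhook crosslinked DNA strands at replication forks, rose with MKI67 in 5 of 7 cases. Their median pairwise Spearman rho was 0.44 over 36 lines. FANCB, FANCC, FANCE and FANCG, all of the core complex, had slopes of 0.45 (SE 0.10), 0.43 (SE 0.13), 0.43 (SE 0.14) and 0.36 (SE 0.09), and FANCF 0.31 (SE 0.11). The calls of FANCB, FANCC, FANCE and FANCF were lost with the log2 TMM factor in the model, and those of FANCC and FANCF with type in the model. The FANCF call was also lost without GRANTA519, HAIR_M, JEKO1, KARPAS1718, SUDHL6, U2932 or WSU_DLCL2. It was lost without the 2 lines farthest in MKI67 as well (adjusted p up to 0.412 by edgeR over all settings). FANCG kept its call in all 11 alternative fits. FANCA (0.26, SE 0.14) and FANCL, the ubiquitin ligase subunit (0.34, SE 0.15), did not pass. FANCE was 11.3 CPM (105 counts) in HBL1 against a median of 123 and 31.5 CPM in the next lowest line, SUDHL4. In HBL1 the nearest panel genes of FANCE were low as well: PPARD by -1.38, FKBP5 by -1.76, MAPK14 by -2.23 and HMGA1 by -1.12 log2 units from their medians. FANCG was highest in SUDHL6, at 417.4 CPM against a median of 99.7.

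Among the nucleotide excision genes, ERCC3 was lower in ABC lines. ERCC3, a helicase of the transcription and repair factor TFIIH (chr2:127257290-127294176, minus strand, GRCh38), was 61.1 CPM in SUDHL2, 73.4 in U2932, 103.2 in TMD8, 137.6 in HBL1 and 160 in RIVA. All 5 values lay below the lowest of the 14 GCB lines, which ran from 180.7 to 354.2 CPM with a median of 212.9. The log2 fold change was -1.12 (SE 0.30, adjusted p = 0.0404 by edgeR). The mantle lines (102.9 to 275.9 CPM) and the marginal zone and hairy cell lines (135.2 to 352.9 CPM) overlapped both. The call was lost without HBL1, SUDHL2, TMD8, U2932, OCILY1, OCILY19, OCILY8, SUDHL4 or SUDHL6. It was also lost with the authors' log2 values, with the log2 TMM factor or MKI67 in the model, and with FARAGE and RCK8 added to the types (adjusted p up to 0.235). In the test over types ERCC3 did not pass (adjusted p = 0.081 by edgeR). RAD23B, which stabilises the damage sensor XPC, rose with MKI67 (0.42, SE 0.07, adjusted p = 5.34e-05 by edgeR), as did ERCC8 (0.32, SE 0.09). The ERCC8 call was lost with the log2 TMM factor or type in the model. In all, 6 of the 9 genes did not pass, including ERCC1 (0.24, SE 0.11) and ERCC6 (0.11, SE 0.10). Of 13 other genes of this route 7 rose, where 16.1% of all genes did. PCNA, RFC1, RFC3, RFC4 and RPA1 are among the 7 and were already counted with mismatch repair.

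The repair genes of the ABC lines leaned lower as a group. The median log2 fold change against GCB was -0.52 over the 68 genes and -0.12 over all genes tested, with 53 of 68 (77.9%) negative against 56% of all. The median of all genes was 0.12 with limma-voom and 0.07 with the authors' log2 values, where that of the repair genes was -0.48 and -0.55. The genes next to the threshold were POLD2 (-1.41, SE 0.41, adjusted p = 0.068 by edgeR), RAD17 (-1.05, SE 0.32, adjusted p = 0.0834) and XRCC4 (-1.15, SE 0.35, adjusted p = 0.0874). RIVA differed from the other 4 ABC lines: the median deviation of the repair genes was 0.47 in RIVA and between -0.63 and -0.44 in the other 4. RIVA also had the highest MKI67 of the 5, at 1224 CPM, where SUDHL2 had 92.9, U2932 153.3, HBL1 187.6 and TMD8 331.1, against a GCB median of 718. Without RIVA, 4 genes were called lower in ABC lines: ERCC3, MSH5, POLD2 and RAD17. This was the highest number over the fits without each line. RIVA was set apart by its high repair genes, so leaving it out lowers the ABC mean, and this number is no separate support. With MKI67 in the model the median was -0.11 for the repair genes and -0.25 for all genes, and with the log2 TMM factor -0.20 and -0.13. The TMM factor had a median of 1.24 in ABC and 0.89 in GCB lines.

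In mantle lines and in marginal zone and hairy cell lines the repair genes lay closer to all genes tested. The median log2 fold change against GCB of the 68 genes was -0.13 in mantle lines and -0.08 in marginal zone and hairy cell lines, beside -0.28 and -0.09 over all genes tested. Without JVM2, HAIR_M and HC_1 the direction in the marginal zone lines turned, to a median of 0.08 with 28 of 68 negative, beside -0.10 over all genes. With those lines, of the 68, 49 were negative in mantle lines (72.1%, against 67.7% of all genes) and 39 in marginal zone and hairy cell lines (57.4%, against 56.6%).

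The 6 end joining genes had the lowest median slope on MKI67 of the 9 groups, at 0.08. PRKDC, the catalytic subunit of the DNA-dependent protein kinase, rose (0.34, SE 0.10, adjusted p = 0.0104 by edgeR). The PRKDC call was lost with the log2 TMM factor in the model and without SUDHL6, where the gene was highest at 1191 CPM. The Ku subunits XRCC5 (-0.04, SE 0.09) and XRCC6 (-0.32, SE 0.14), the ligase LIG4 (0.24, SE 0.14), its cofactor XRCC4 (0.20, SE 0.11) and the polymerase POLL (-0.11, SE 0.12) did not pass. The median pairwise Spearman rho of the 6 genes was 0.02. LIG4 was 3237 CPM in the marginal zone line KARPAS1718, against a median of 349.1 CPM and 776.9 CPM in the next line, RIVA. In the panel's other end joining genes, DNTT, the terminal transferase that adds bases at antibody gene joints, was lower in mantle than in GCB lines (log2 fold change -6.53, SE 1.86, adjusted p = 0.0396 by edgeR), as was RAG1, which cuts those genes (-3.25, SE 0.98, adjusted p = 0.0496). A fold change of this size depends on the prior count where levels are near 0.

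The base excision genes and the PARP enzymes, which mark single-strand breaks, were mixed. XRCC1, the scaffold of single-strand break repair (0.40, SE 0.12), and PARP2 (0.26, SE 0.08) rose with MKI67, and PARP3 fell by 0.41 (SE 0.16, adjusted p = 0.0443 by edgeR). The XRCC1 and PARP2 calls were lost with the log2 TMM factor in the model. PARP3 was near the floor in DB, KARPAS1718 and OCILY8, with 5, 6 and 6 counts, and its call was lost without any 1 of 17 lines. The PARP3 call was also lost with no filter, limma-voom or the authors' log2 values, and with the log2 TMM factor or type in the model. PARP1 (0.24, SE 0.12, adjusted p = 0.111), LIG3, POLB and PARP4 did not pass. PARP1, the main PARP enzyme, ran from 137.1 CPM in MEC1 and 257 CPM in DOHH2 to 2883 CPM in SUDHL4, with a median of 937.1. Of 15 other base excision genes, 5 rose, PCNA again included, where 16.1% of all genes did. Among them were the uracil glycosylase UNG (0.40, SE 0.10) and NEIL3 (0.54, SE 0.12).

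Of the 6 replicative genes, 3 rose with MKI67: LIG1, POLE2 and POLD3. LIG1, the ligase that seals Okazaki fragments (chr19:48115445-48170603, minus strand, GRCh38), ran from 79.3 CPM in SUDHL2 to 2076 CPM in RIVA with a median of 489.1. Its slope was 0.69 (SE 0.12, adjusted p = 5.13e-05 by edgeR). POLE2, a subunit of the leading-strand polymerase (chr14:49643555-49688422, minus strand, GRCh38), ran from 33.1 CPM in WSU_DLCL2 to 512.4 CPM in SUDHL6 with a median of 149.8 and a slope of 0.58 (SE 0.11, adjusted p = 0.000231). LIG1 and POLE2 had the highest rank correlation of any 2 of the 68 genes, a Spearman rho of 0.88 over 36 lines that share library depth and composition, and LIG1 with RAD51C gave 0.84. The lowest was -0.79, between MSH4 and XRCC1. Among the polymerase delta subunits, POLD3 passed (0.22, SE 0.08), and POLD1 (0.27, SE 0.11), POLD2 (0.32, SE 0.14) and POLD4 (-0.08, SE 0.15) did not. The POLD3 call was lost with the log2 TMM factor in the model. The panel's other replication and nucleotide supply genes rose in 13 of 16 cases, PCNA again included, where 16.1% of all genes did. RRM2, a subunit of the enzyme that makes deoxynucleotides, had a slope of 0.74 (SE 0.11).

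**Figure D5:**
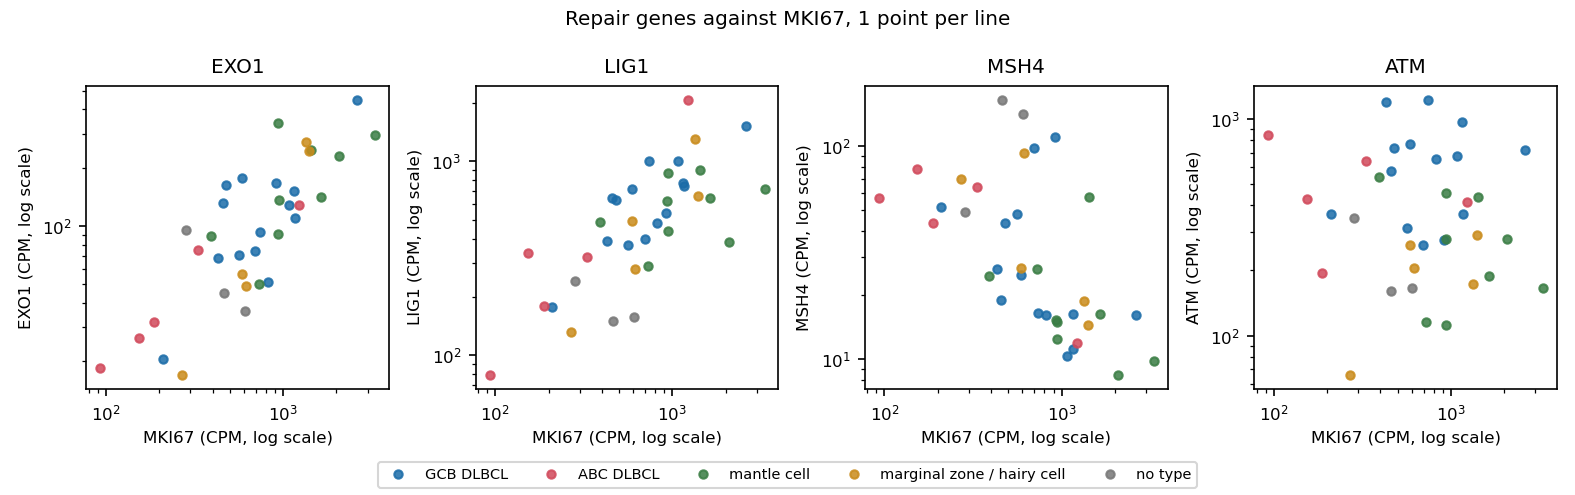
CPM of EXO1, LIG1, MSH4 and ATM against CPM of MKI67, both on log scales, 1 point per line coloured by type. EXO1 and LIG1 climb from SUDHL2 at the lower left, MSH4 falls, and the slope of ATM did not pass the test.

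Of the genes given no repair route, RAD21 (0.34, SE 0.10), POLR2D (0.39, SE 0.10) and PMS2P3 (0.35, SE 0.13) rose with MKI67. POLR2H fell by 0.23 (SE 0.09), and POLR2J (0.25, SE 0.13) and XRCC6BP1 (0.36, SE 0.17) did not pass. The calls of PMS2P3 and POLR2H were lost without any 1 of 13 and any 1 of 12 lines, and both with the log2 TMM factor or type in the model. Those of RAD21 and POLR2D were lost with the log2 TMM factor in the model. RAD18 rose by 0.29 (SE 0.07).

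Single lines far from a gene's median were rarer among repair genes than in the panel. Of the 2448 pairs of a repair gene and a line, 24 (0.98%) lay 2 or more log2 units below the gene's median, against 6.45% of the 86616 pairs of all genes tested, and 19 (0.776%) lay as far above it, against 5.82%. The pairs far below involved 17 genes and 13 lines, and 44 of the 68 genes had no line far to either side. At a limit of 3 log2 units 5 pairs remained: MSH6 in FARAGE, MLH3 in REC1, FANCE in HBL1, MSH5 in RCK8 and, above the median, LIG4 in KARPAS1718. WSU_DLCL2 was far below in 4 genes (BRCA1, EXO1, POLE2 and FANCC), HAIR_M in 3 (BRCA1, EXO1 and ATM) and SUDHL2 in 3 (LIG1, EXO1 and FANCL), all lines with low MKI67 (209.5, 268.8 and 92.9 CPM). The part of MKI67 in these was not tested.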

How the data were processed

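Targeted RNA-Seq of 36 lines, 1 library each, gave a deposited table of raw counts per target, used as deposited. The submitters' processing notes name build hg38. The sources used here give no aligner, counting method or use of strand. A second deposited table held log2 values, each equal within 0.00527 to the log2 of the count over 1 factor per library plus 1, and served as an alternative. Of 2559 targets, 10 named ER and a number were taken as control probes and left out. The 68 repair genes, their role groups, the partner and marker lists and the tests were chosen with earlier results of these data known.

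Counts were scaled by TMM in edgeR 4.0.16 (R 4.3.3) and given as CPM, or log2 CPM (prior count 2). The 2406 of 2549 genes that reached 10 CPM in 4 or more lines were tested by edgeR's quasi-likelihood test, over types in 33 lines and on MKI67 in 36, with Benjamini-Hochberg adjustment over all genes and a threshold of 0.05. The SE is the estimate over the square root of F. p-values measure spread between lines. Intervals are exact Poisson at 95%, for counting error only. Alternatives used DESeq2 1.42.0, limma 3.58.1, other filters, covariates and sets of lines. MKI67 in the fits by type, and leaving out each GCB and mantle line, or each line in the slope fits, were chosen after seeing the data. Some of the 68 genes are counted in totals and not reported singly here. The fits were tested on simulated data. Genes given in full were those called over types or in a contrast, the 10 largest SDs, the 8 largest slopes in each direction, genes with a line far below the median, and ATM, ATR, PRKDC, BRCA1, BRCA2 and PARP1; of other pathway genes, at most 3 called per list. CHEK1, CHEK2 and the genes near the threshold or far above a median were named after their values were seen. Coordinates come from GENCODE on GRCh38 (67 of 68 genes matched), promoters from RefSeq GRCh38.p14 (55 of 68).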

Additional observations from a re-analysis of the deposited data

Results flagged for a closer look

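Of 192 sets of 1 gene in the lines of 1 type with 4 to 10 lines (ABC, mantle, and marginal zone and hairy cell), 10 held a line whose gap to the nearest other exceeded Dixon's 95% limit, where chance flags about 1 in 20. Of these 10, 5 were RIVA as the highest of the 5 ABC lines: ERCC5 at 228.4 CPM (next 100.5), ERCC8 at 395.8 (next 151), MSH3 at 512.2 (next 258.6), POLE2 at 459.3 (next 91.0) and RAD51C at 285.5 (next 118.8). RIVA also had the highest MKI67 of the ABC lines. In the mantle lines REC1 was lowest in MLH3 at 33.5 CPM (next 251.8) and in FANCF at 24.4 (next 107.1), and MINO in POLD3 at 111.5 (next 232). KARPAS1718 was highest of its type in LIG4 at 3237 CPM (next 329.2) and VL51 in RAD50 at 771 (next 510.2).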

How the results depend on the processing

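The number of repair genes called between types was small, so most alternatives moved it. Over the 4 types it was 2, and 1 with DESeq2 size factors, with a 50 CPM filter, with limma-voom, with the authors' log2 values, with FARAGE added to GCB and RCK8 to ABC, or with MKI67 as a covariate, 5 by the DESeq2 test, 0 without JVM2, HAIR_M and HC_1, and 1 to 4 without each line. ABC against GCB gave 1, and 6 by the DESeq2 test, 2 without those 3 lines, 0 with the authors' values, the TMM covariate, FARAGE and RCK8, or MKI67, and 0 to 4 without each line. Mantle against GCB gave 1, and 2 by the DESeq2 test, the TMM covariate or MKI67 (with MKI67 ERCC6 and MSH6, without ATM), 0 with the authors' values, FARAGE and RCK8, or without those 3 lines, and 0 to 1 without each line. Marginal zone and hairy cell against GCB gave 1, and 2 by the DESeq2 test, 0 with limma-voom, the authors' values, FARAGE and RCK8, or without those 3 lines, and 0 to 1 without each line. The MKI67 count was 35, 11 with the TMM covariate, 25 to 50 in the other alternatives and 27 to 38 without each line. Pairs far from the median were 43, and 5 at 3 log2 units. The causes were not tested. The sign of no called gene reversed. The median of the repair genes in marginal zone and hairy cell lines turned from -0.08 to 0.08 without those 3 lines, and the median slope of all genes from 0.02 to -0.002 with no filter and to -0.04 with limma-voom or the TMM covariate. No paired analysis was possible because replicate numbers only follow the order of the samples. Depth limits PARP3 and MSH5, at a few counts in single lines.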

Other observations

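MGMT, the enzyme that removes alkyl groups from guanine, was lower in marginal zone and hairy cell lines than in GCB lines (log2 fold change -4.98, SE 1.05, adjusted p = 0.00555 by edgeR). RRM2B, a p53-induced subunit of ribonucleotide reductase, was lower in mantle than in GCB lines (-1.36, SE 0.36, adjusted p = 0.0245), as was the transcription factor E2F5 (-1.48, SE 0.45, adjusted p = 0.0497). These genes are outside the 68 and came from partner lists of 13, 17 and 11 genes, of which 3, 14 and 6 outside the 68 were tested. Lower levels than in GCB lines were called in 0.125% of all genes in marginal zone and hairy cell lines and in 2% in mantle lines.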
